A study of Homo sapiens with 4 samples.

Results

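The genes described here were 9 genes of acid-base handling: the carbonic anhydrases CA2, CA8, CA9, CA11, CA12 and CA13 and the bicarbonate transporters SLC4A2, SLC4A4 and SLC4A7. They were listed by name, and each was found as 1 row of the count table, so that they make up 9 of 56304 gene rows. MV3 is an established human melanoma line described in the labels as highly metastatic, and the cells carried H2B-GFP, a histone joined to green fluorescent protein that lights up nuclei. Spheroids of 50000 cells were embedded in collagen I and left for 2 days without further treatment, after which a biopsy punch of 1 mm removed the compact core and one of 3 mm the collagen around it, which is the invasion zone. Bulk RNAseq was performed on 2 libraries per zone, and both zones share the line, the H2B-GFP genotype, the collagen and the time point. The punch cut vertically, so that, as the study states, invading cells above and below the core may remain in a core sample.

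Carbonic anhydrases convert carbon dioxide and water into bicarbonate and a proton, and back. Tumour cells produce much acid, and anhydrases with their active site outside the cell work together with bicarbonate transporters in the plasma membrane to keep the cytosol neutral while the space around the cells turns acidic. CA9 and CA12 are such transmembrane enzymes with an extracellular active site, and CA9 is a classical target of the hypoxia-inducible factors. CA2 and CA13 are cytosolic enzymes, whereas CA8 and CA11 have the anhydrase fold but lack catalytic activity. SLC4A2 exchanges chloride for bicarbonate, and SLC4A4 and SLC4A7 carry sodium together with bicarbonate.

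In these data the extracellular anhydrases and the acatalytic CA11 were lower in the invasion zone, CA9 by far the most, whereas the cytosolic CA13 and the transporters SLC4A2 and SLC4A7 stood at equal or slightly higher levels there. CA9 had 173 and 158 counts per 1000000 counts of the library (CPM, after TMM scaling) in the core libraries and 13.4 and 3.61 CPM in the invasion zone libraries. CA2 and CA8 had no count in any library. Calls required an adjusted p under 0.05 together with a change of at least 2-fold. The decreases of CA9, CA12 and CA11 were called by DESeq2, and by edgeR with the replicate number as an added term (the replicate block, which removes what same-numbered libraries of both zones share), but not by the quasi-likelihood test of edgeR without that block, which called no gene of any kind. It is not stated that libraries of one number came from the same spheroid, so that values without the block are given first.

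Human gene positions were taken from GENCODE release 44 on GRCh38. CA9 (ENSG00000107159) lies at chr9:35673928-35681159 on the plus strand, CA12 (ENSG00000074410) at chr15:63321378-63381846 on the minus strand and CA11 (ENSG00000063180) at chr19:48637946-48646187 on the minus strand. SLC4A2 (ENSG00000164889) lies at chr7:151057210-151076526 on the plus strand, SLC4A7 (ENSG00000033867) at chr3:27372721-27484420 on the minus strand and SLC4A4 (ENSG00000080493) at chr4:71062667-71572087 on the plus strand.

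The 250 bases upstream of the start site of CA9 and CA12 are printed because these are the extracellular anhydrases and both were lower in the invasion zone. Sequences are from RefSeq on GRCh38.p14, 5′ to 3′ on the gene's strand, and capitals mark each match, on either strand, to ACGTG or GCGTG, the core of the motif bound by hypoxia-inducible factors. The CA9 window is chr9:35673678-35673927 on the plus strand and the CA12 window is chr15:63381847-63382096 on the minus strand.
CA9: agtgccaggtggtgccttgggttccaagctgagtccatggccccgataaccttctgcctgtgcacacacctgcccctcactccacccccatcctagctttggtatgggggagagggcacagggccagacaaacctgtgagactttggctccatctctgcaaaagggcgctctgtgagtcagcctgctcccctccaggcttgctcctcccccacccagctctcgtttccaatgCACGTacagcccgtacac
CA12: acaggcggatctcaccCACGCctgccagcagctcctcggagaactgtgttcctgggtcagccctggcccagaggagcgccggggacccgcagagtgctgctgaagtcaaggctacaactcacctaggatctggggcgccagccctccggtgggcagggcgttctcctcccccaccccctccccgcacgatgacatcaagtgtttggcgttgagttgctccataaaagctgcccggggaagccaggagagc

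The CA9 window held 1 match, ACGTG read on the opposite strand, beginning at position -18 relative to the start site. The CA12 window also held 1 match, GCGTG on the opposite strand, beginning at position -234. Of 35116 RefSeq windows of the same length, 43.21% held ACGTG or GCGTG on either strand and 18.51% held ACGTG, so that a match is common. SLC4A7, which was not lower in the invasion zone, held 2 matches in 1 of its 2 windows, both GCGTG. Of the 4 windows of SLC4A2, 1 held 7 matches, of which 6 were ACGTG. These 6 lie in pairs at neighbouring positions, each pair being CACGTG read on both strands, so that they mark fewer sites than matches. No window of SLC4A4 held a match. A match describes letters in a window and was not read as a bound site.

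Per library, the total count was 36363358 and 14983135 in core replicates 1 and 2, and 37591782 and 11789243 in invasion zone replicates 1 and 2. The floor of 3 counts, the level that a count of 0 still allows, therefore stood at 0.0825 and 0.200 CPM in the core against 0.0798 and 0.254 in the invasion zone. Defining melanocyte genes were low or absent: SOX10 and TYR had no count, and the 8 genes of that list summed to between 2.9 and 6.05 CPM. The 4 genes listed for dedifferentiated melanoma differed among themselves. AXL was read at 632 and 628 CPM in the core against 1222 and 1120 in the invasion zone, and EGFR at 135 and 192 against 195 and 207. SOX9 overlapped between the zones, at 122 and 163 CPM against 160 and 130, and NGFR was at or below 0.0663 CPM in every library. Among 5 markers of cells that the culture should not hold, summing to 18.3 and 7.75 CPM in the core against 5.44 and 0.925 in the invasion zone, nearly all counts were of PECAM1, an adhesion molecule of endothelium and platelets, at 18.1 and 7.42 CPM against 5.22 and 0.925. The other 4, CDH5 of endothelium, PTPRC of leukocytes and the epithelial EPCAM and CDH1, summed to at most 0.331 CPM in any library. PECAM1 thus moved in the same direction as CA9, CA12 and CA11, and its part in their difference was not tested. In bulk samples, fewer cells that express a gene and less RNA per cell cannot be told apart.

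CA9, the transmembrane anhydrase whose activity faces outward, had the largest zone difference of the 6 tested members. It was read 6215 and 2392 times in the core and 504 and 43 times in the invasion zone, or 166 ± 10.6 CPM in the core against 8.52 ± 6.94 in the invasion zone (SD, n = 2). The core libraries lay close together, and the invasion zone libraries lay far below them and apart from each other. Within replicate 1 the core was 12.9-fold higher than the invasion zone (95% interval 11.8 to 14.2, counting error only), and within replicate 2 it was 43.8-fold higher (32.4 to 60.7). Among the 15529 genes tested, 1 had a lower log2 difference than CA9 in replicate 1 and 0 in replicate 2, on the scale of log2(CPM + 0.5), which damps genes with few counts. On the scale of the edgeR log2 fold change, 23 genes lay lower than CA9. The edgeR log2 fold change, invasion zone over core, was -4.21 (SE 0.58), with an adjusted p of 0.128 by the quasi-likelihood test. With the replicate block it was -4.27 (SE 0.30) with an adjusted p of 5.9e-05 in edgeR, and DESeq2 without a block gave an adjusted p of 2.07e-16. The block lowered the SE in edgeR but raised it in DESeq2, from 0.47 to 0.79. With 1 library left out the edgeR log2 fold change ranged from -5.52, without invasion zone replicate 1, to -3.63, without invasion zone replicate 2.

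Of the 1598 exonic bases of CA9, 571 are shared with ARHGEF39, a gene on the opposite strand, and the strand setting of the counting is not given in the sources used here. ARHGEF39 was counted at 5.02 and 7.95 CPM in the core against 10.3 and 12.02 in the invasion zone, the opposite order to CA9. Reads of the shared stretch cannot be assigned to either gene without strand.

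CA12, the other transmembrane anhydrase, was the member with the highest CPM in the core. It had 202 and 169 CPM in the core against 100.5 and 31.8 in the invasion zone, a mean of 185 ± 23.7 against 66.1 ± 48.6 (SD, n = 2). The zones did not overlap, but invasion zone replicate 1 stood nearer to the core libraries than replicate 2 did. The core was 2.01-fold higher in replicate 1 (95% counting interval 1.93 to 2.09) and 5.31-fold higher in replicate 2 (4.76 to 5.93). The edgeR log2 fold change was -1.48 (SE 0.52, adjusted p = 0.175), and with the replicate block it was -1.65 (SE 0.26, adjusted p = 0.0013 in edgeR). In DESeq2 the block raised the SE, from 0.45 to 0.64. Without invasion zone replicate 2 the edgeR log2 fold change was -0.89, which is less than 2-fold, and without invasion zone replicate 1 it was -2.55.

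CA11, a secreted protein related to the anhydrases that has no enzymatic activity, was likewise lower in the invasion zone. It was read 1183 and 431 times in the core and 452 and 48 times in the invasion zone, or at 33.0 and 28.6 CPM against 12.05 and 4.03 CPM. Both invasion zone libraries were below both core libraries, and the replicate 2 library was again the lowest. The core was 2.74-fold higher in replicate 1 (95% counting interval 2.46 to 3.06) and 7.08-fold higher in replicate 2 (5.24 to 9.75). The edgeR log2 fold change was -1.89 (SE 0.49, adjusted p = 0.135), and with the replicate block -1.95 (SE 0.26, adjusted p = 0.00057 in edgeR). In DESeq2 the block lowered the SE as well, from 0.46 to 0.30. With 1 library left out the edgeR value ranged from -2.93, without invasion zone replicate 1, to -1.36, without invasion zone replicate 2. CA8 (ENSG00000178538), the other acatalytic member, had no count among 100727518, which allows up to 0.0298 CPM over the 4 libraries together.

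**Figure D1:**
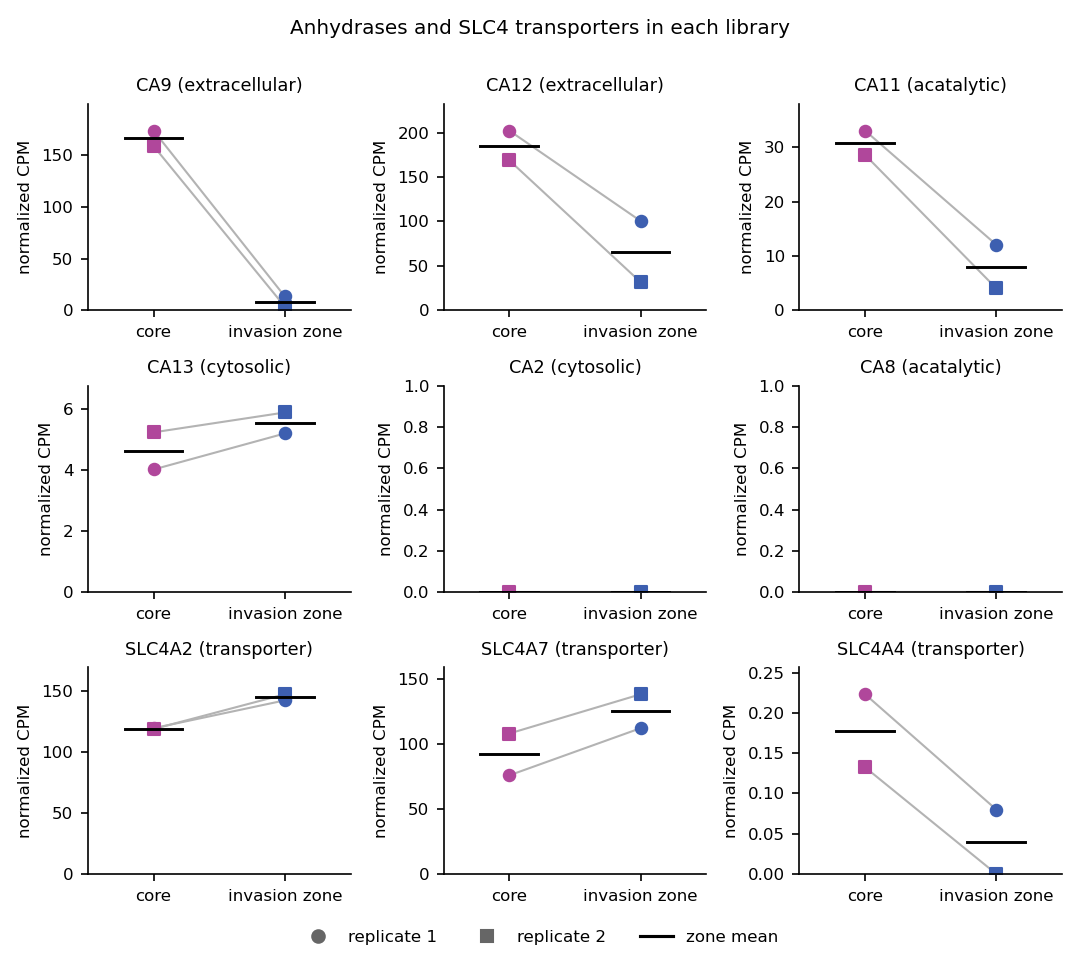
CPM of the members in each of the 4 libraries, with circles for replicate 1, squares for replicate 2, grey lines joining libraries of one number and black bars for the zone mean. CA9, CA12 and CA11 are lower in both invasion zone libraries than in both core libraries, with replicate 2 the lowest, while CA13, SLC4A2 and SLC4A7 change little.

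CA13 (ENSG00000185015), a cytosolic anhydrase encoded on chromosome 8 like CA2 and CA8, was low in every library and did not separate the zones. It was at 4.02 and 5.23 CPM in the core against 5.197 and 5.88 in the invasion zone, so that core replicate 2 lay above invasion zone replicate 1. The edgeR log2 fold change was 0.26 (SE 0.28, 95% interval -0.45 to 0.98, adjusted p = 0.609), and no alternative called it. The interval leaves room for a change of nearly 2-fold upward. CA2 (ENSG00000104267), the abundant cytosolic anhydrase of red blood cells and many epithelia, had no count in any library, which allows up to 0.0298 CPM over the 4 libraries. The cytosolic level of these cells, as far as the 2 listed enzymes go, was that of CA13 alone.

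Among the SLC4 members, SLC4A2 and SLC4A7 stood slightly higher in the invasion zone. SLC4A2, the chloride-bicarbonate exchanger, was at 120 and 119 CPM in the core against 142 and 147 in the invasion zone. Neither invasion zone library reached down to the core, and the libraries of a zone differed from each other by far less than the zones did. The log2 fold change was 0.28 (SE 0.13, adjusted p = 0.249 in edgeR) and 0.28 with the block (SE 0.08, adjusted p = 0.0203 in edgeR), short of the 2-fold minimum in both.

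SLC4A7, an electroneutral sodium-bicarbonate cotransporter, was at 75.9 and 108 CPM in the core against 112 and 138 in the invasion zone. The zones did not overlap, but core replicate 2 lay just below invasion zone replicate 1. Its log2 fold change was 0.45 (SE 0.22, adjusted p = 0.279 in edgeR), or 0.46 with the block (SE 0.09, adjusted p = 0.0034 in edgeR). DESeq2 without the block gave adjusted p-values of 0.326 for SLC4A2 and 0.264 for SLC4A7.

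SLC4A4, an electrogenic sodium-bicarbonate cotransporter, was near the limit of detection. It was read 8 and 2 times in the core and 3 and 0 times in the invasion zone, too few to be tested. The summed counts of 10 and 3 gave a ratio of 0.309 between invasion zone and core, with a 95% counting interval from 0.0547 to 1.2. A difference was not detectable at this depth.

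Across the members, 6 of 9 passed the filter on low counts. Both invasion zone libraries were below both core libraries for 3 of these 6, against 30.3% of all genes tested, and above them for 2, against 28.1%. At an adjusted p under 0.05 and a 2-fold change, edgeR without a block called 0 members and 0 of all 15529 genes (0.0% in either direction), with a smallest adjusted p of 0.128. At an unadjusted p under 0.05 and a 2-fold change it counted 909 genes lower and 454 higher, and the 3 members CA9, CA12 and CA11 were among the lower ones. Limma voom also called 0 genes. With the replicate block, edgeR called 3 members lower, against 7.06% of all genes, and 0 higher, against 3.41%. DESeq2 without the block called the same 3 lower, against 4.27% of the 12819 genes with an adjusted p, and 0 higher, against 2.76%. Without a fold minimum, the blocked test also passed SLC4A2 and SLC4A7 as higher, as it did 19.4% of all genes.

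**Figure D2:**
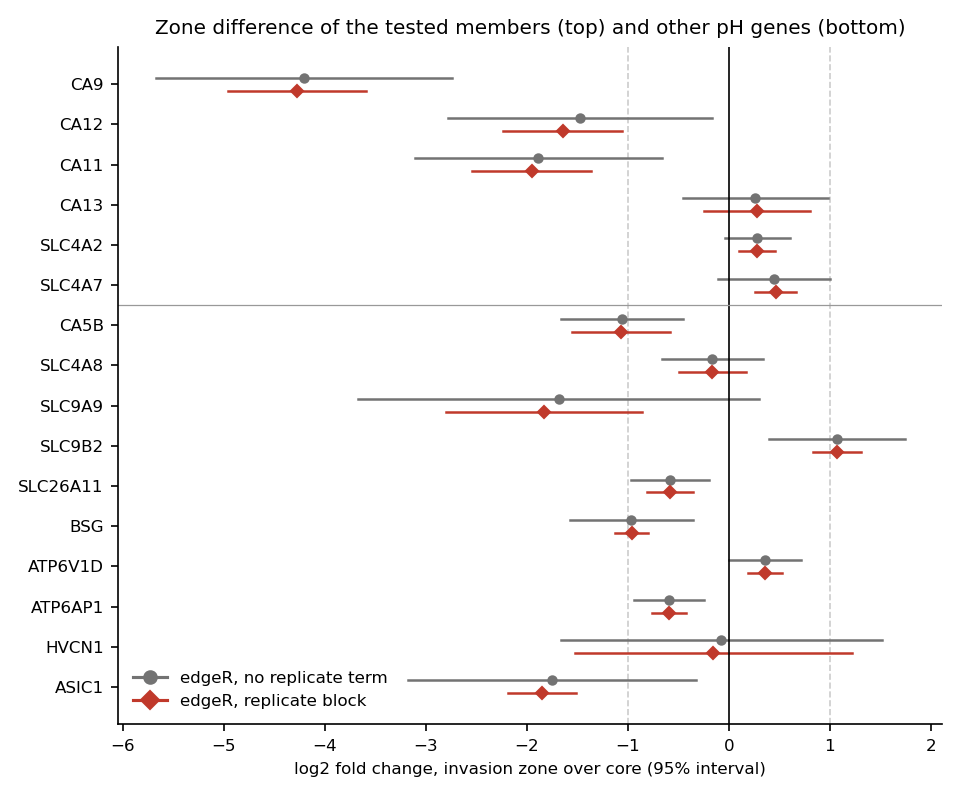
Log2 fold change, invasion zone over core, of the 6 tested members (top) and of the named other pH genes (bottom) from edgeR, with 95% confidence intervals, without (grey) and with (red) the replicate block; dashed lines mark a 2-fold change. CA9, CA12 and CA11 lie below 0 in both fits and CA13 spans 0. These edgeR intervals are narrower with the block, whereas in DESeq2 (not drawn) the block widened those of CA9 and CA12 and narrowed that of CA11.

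The decreases were unequal between the replicates. From replicate 1 to replicate 2 the log2 difference between the zones moved by -1.63 for CA9, by -1.39 for CA12 and by -1.26 for CA11. The median over all genes tested moved by -0.05, with the 5th percentile at -0.80 and the 95th at 0.52, and 2.81% of genes moved by more than 1 downward. Only 0.444% of genes tested moved further down than CA9, 0.959% further than CA12 and 1.42% further than CA11. CA13 (-0.18), SLC4A2 (0.06) and SLC4A7 (-0.21) moved by amounts inside that central range. The replicate 2 libraries were the shallower ones in both zones, and the part of depth in these gaps was not tested. Both replicates gave the same direction for every tested member.

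**Figure D3:**
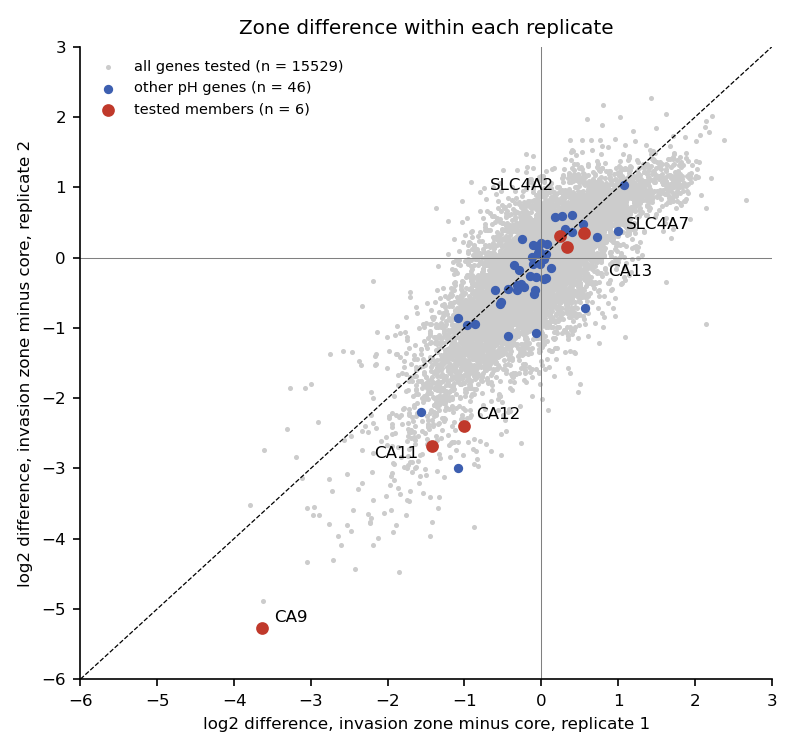
Log2 difference between invasion zone and core within replicate 1 (x axis) and within replicate 2 (y axis), on the log2(CPM + 0.5) scale, for 15529 genes tested (grey), 46 other pH genes (blue) and the 6 tested members (red); the dashed line marks equal differences. CA9, CA12 and CA11 lie below the dashed line and CA9 lies at the far end of all genes, while CA13, SLC4A2 and SLC4A7 lie near it, above 0 in both replicates.

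Summed by role, the extracellular enzymes CA9 and CA12 gave 376 and 327 CPM in the core against 114 and 35.4 in the invasion zone. The SLC4 transporters summed to 196 and 227 CPM in the core against 255 and 286 in the invasion zone. Extracellular anhydrases therefore exceeded the transporters in the core, at 1.92 and 1.44 CPM per CPM, and were below them in the invasion zone, at 0.448 and 0.124. Relative to the cytosolic enzymes they stood at 93.5 and 62.5 in the core and at 21.9 and 6.01 in the invasion zone. The acatalytic CA11 stood at 8.21 and 5.46 relative to the cytosolic enzymes in the core and at 2.32 and 0.686 in the invasion zone. CA9 relative to CA12 was at 0.858 and 0.940 in the core and at 0.134 and 0.114 in the invasion zone. In the invasion zone this last ratio was nearly equal between the replicates, although CA9 and CA12 each differed between them. For each of these 4 ratios the zones did not overlap. The ratios are built from the member values given above, so that their separation is no further support. The two-sided exact permutation test gave p = 0.33, and 0.33 after adjustment over the 4 ratios. That is the smallest value that 2 against 2 libraries allow, so the test cannot decide.

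Per kilobase of exon, which allows levels of different genes to be set side by side, the order of the members turned between the zones. CA9 led in the core at 104 ± 6.59 CPM per kilobase, followed by CA12 at 26.5 ± 3.38, CA11 at 15.8 ± 1.62, SLC4A2 at 15.7 ± 0.0654 and SLC4A7 at 9.57 ± 2.37 (SD, n = 2). CA11 and SLC4A2 did not differ beyond their spread in the core. CA13 followed far below at 0.827 ± 0.153 CPM per kilobase. In the invasion zone SLC4A2 led at 19.1 ± 0.467 CPM per kilobase, followed by SLC4A7 at 13.0 ± 1.92, CA12 at 9.45 ± 6.94, CA9 at 5.33 ± 4.34, CA11 at 4.13 ± 2.91 and CA13 at 0.990 ± 0.0868. There, the ranges of CA12, CA9 and CA11 overlapped, although each library gave the same order, and 1 CA12 library lay among those of SLC4A7. These levels use the union of all annotated exons as length.

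Within the carbonic anhydrase family of 15 genes, the sum was 424 and 371 CPM in the core libraries and 136 and 50.1 CPM in the invasion zone libraries, given as values with no test. CA9 made up 40.9% and 42.7% of that sum in the core and 9.86% and 7.22% in the invasion zone. CA12 made up 47.7% and 45.4% in the core and 73.8% and 63.4% in the invasion zone, and was the leading anhydrase by CPM in all 4 libraries. The share of CA13 was 0.949% and 1.41% in the core and 3.82% and 11.7% in the invasion zone, while its level stayed near 5 CPM. CA11 kept a share of the summed CPM between 7.69% and 8.84% in all libraries. Counted per kilobase, CA9 made up 69.2% and 70.6% of the family in the core and 27.4% and 21.5% in the invasion zone, where CA12 led with 46.8% and 43.1%. The per-kilobase share of CA11 did differ, at 10.8% and 10.4% in the core against 20.2% and 19.7% in the invasion zone. Of the anhydrases that are not members, only the mitochondrial CA5B reached 1 CPM.

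**Figure D4:**
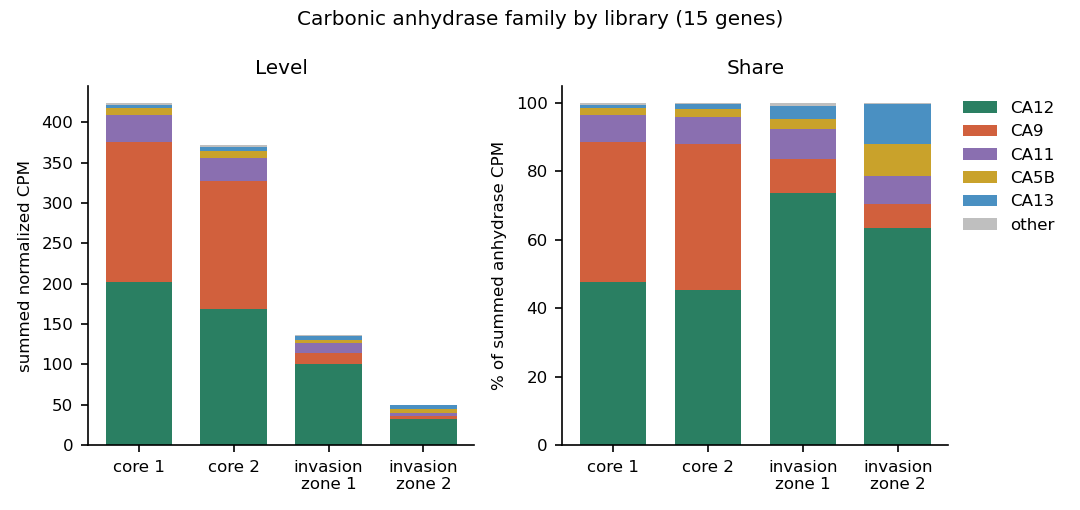
Carbonic anhydrase levels in the 4 libraries, as CPM stacked by gene (left) and as the share of each gene in the family's summed CPM (right). The family sum is lower in the invasion zone libraries, and CA9 shrinks from over 40% of it in the core to under 10% in the invasion zone.

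Around the members, 82 other genes of pH handling were listed by class, of which 46 were tested and 36 were not, 6 of these without any count. Their median log2 fold change was -0.11, beside -0.01 over all genes tested, with 28 negative and 18 positive values. Both invasion zone libraries were below both core libraries for 17 of the 46, where 30.3% of all genes tested were, and above them for 9, where 28.1% of all were. EdgeR without the block called none of them. With the block, 3 were called lower, CA5B, SLC9A9 and ASIC1, beside 7.06% of all genes, and 1 higher, SLC9B2, beside 3.41%. DESeq2 without the block called CA5B and ASIC1 lower, beside 4.27% of all genes, and SLC9B2 higher, beside 2.76%. For a list of 46 genes these counts are close to the shares over all genes, and nothing about the list is read from them.

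CA5B, a mitochondrial anhydrase, was at 9.18 and 8.81 CPM in the core against 4.08 and 4.62 in the invasion zone. Its log2 fold change of -1.06 (SE 0.24, adjusted p = 0.131 in edgeR without the block and 0.0043 with it) was of similar size within replicate 1 (-1.08) and replicate 2 (-0.86). With 1 library left out it ranged from -1.14, without invasion zone replicate 2, to -0.96, without invasion zone replicate 1, which is less than 2-fold. Of the other anhydrases only CA14, below 1 CPM in all libraries, was also tested.

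Among the sodium-proton exchangers, SLC9B2 was at 20.2 and 29.4 CPM in the core against 42.9 and 60.7 in the invasion zone. Its log2 fold change was 1.07 (SE 0.27, adjusted p = 0.135 in edgeR without the block and 0.00015 with it), and it was 0.80 without invasion zone replicate 2 and 0.83 without core replicate 1, both under 2-fold. SLC9A9, an exchanger of endosomes, was at 11.1 and 8.21 CPM in the core against 4.96 and 0.588 in the invasion zone. Its log2 fold change was -1.68 (SE 0.79, adjusted p = 0.257 in edgeR without the block and 0.0091 with it), and it was -0.97 without invasion zone replicate 2 and -4.03 without invasion zone replicate 1. The 8 tested genes of this class had a median log2 fold change of -0.13.

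ASIC1, a cation channel opened by extracellular protons, was the acid sensor with the most counts. It was at 120 and 63.4 CPM in the core against 40.3 and 13.4 in the invasion zone. Its log2 fold change was -1.75 (SE 0.57, adjusted p = 0.161 in edgeR without the block and 8.4e-05 with it). Without core replicate 1 the value was -1.21 (adjusted p = 0.164 in edgeR), and over the libraries left out it ranged from -2.77, without invasion zone replicate 1, to -1.19, without invasion zone replicate 2. The zones did not overlap, and in each zone the replicate 2 library was the lower one.

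The remaining classes held no gene called with or without the block, and the gene with the highest mean CPM is named for each. BSG, the chaperone that brings lactate-proton transporters to the surface, was at 2227 and 1625 CPM in the core against 1136 and 838 in the invasion zone. It was just short of the 2-fold minimum with a log2 fold change of -0.96 (adjusted p = 0.135 in edgeR without the block and 6.2e-05 with it). With 1 library left out, the value for BSG ranged from -1.20, without invasion zone replicate 1, to -0.71, without core replicate 1. Its partners, named after their values were seen, differed in sign, and neither reached a 2-fold change. SLC16A3, a lactate exporter, had a log2 fold change of -0.53 (adjusted p = 0.157 in edgeR without the block and 0.0014 with it). SLC16A1, a lactate transporter, had one of 0.51 (adjusted p = 0.135 in edgeR without the block and 0.0021 with it). ATP6AP1, an accessory subunit of the proton-pumping V-ATPase, was at 433 and 430 CPM in the core against 298 and 272 in the invasion zone. ATP6V1D, a subunit of the pump's cytosolic V1 part, was at 182 and 192 CPM in the core against 226 and 255 in the invasion zone. The 12 tested V1 subunits had a median log2 fold change of 0.03 and the 9 tested V0 and accessory subunits one of -0.06.

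SLC26A11, of the SLC26 anion exchangers, was at 57.0 and 53.1 CPM in the core against 39.4 and 34.1 in the invasion zone. SLC4A8, the most abundant of the other SLC4 genes, was at 16.9 and 15.7 CPM in the core against 16.02 and 12.9 in the invasion zone, and its zones overlapped. HVCN1, the voltage-gated proton channel, was at or below 0.504 CPM in every library. The 4 tested SLC4 genes outside the members had a median log2 fold change of -0.11 and the 4 tested SLC26 genes one of -0.32. ATP6V0C, the proton-carrying ring subunit of the V-ATPase, was read at 0.0841 to 0.331 CPM, and 1080 of its 1416 exonic bases are shared with 2 genes on the same strand that had no count. Its level is therefore uncertain.

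Over the 2 differences within replicates, the tested gene nearest to CA9 was PADI4, an enzyme that converts arginine to citrulline, at a distance of 0.388 log2 units. PADI4 was at 73.8 and 49.0 CPM in the core against 5.52 and 1.18 in the invasion zone. The next nearest, CHI3L1, FAM213A and BMF, were at distances of 1.11, 1.34 and 1.47, so that few genes shared differences of that size. Around CA12 the genes were dense, with FAM46A, UBA7, ABCA7 and ITGA11 at distances of 0.0343 to 0.11. These distances rest on 4 libraries and describe likeness in this one contrast.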

How the data were processed

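Core and invasion zone RNA of MV3 spheroids was sequenced as 4 libraries, 2 per zone. The deposited values are raw counts per gene. Before deposition the authors made cDNA with a SMARTer low-input kit, removed ribosomal reads with Bowtie, aligned reads to hg38 with STAR and counted uniquely mapped reads with HTSeq, and the study used DESeq2. Not given in the sources used here are tool versions, the annotation release and whether counting used strand. Amplified cDNA without molecular identifiers means that counting intervals and floors cover counting error only.

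Of 56306 gene rows, 2 repeated rows without counts were left out. In R 4.3.3, genes were filtered with filterByExpr of edgeR 4.0.16 (10 counts at the median library size in 2 libraries and 15 in total), scaled by TMM and tested with the quasi-likelihood test without a replicate term, with Benjamini-Hochberg adjustment over all genes. Calls required an adjusted p under 0.05 together with a change of at least 2-fold. SE is the log2 fold change over the root of the quasi-likelihood F. DESeq2 1.42.0, limma voom 3.58.1 and a replicate block were alternatives. The edgeR fits with and without the block, DESeq2 and limma voom were tested on simulated data.

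Invasion zone and core were punched from the same spheroids, and columns of a replicate number carry neighbouring library numbers, but no source says that these numbers stand for one spheroid, day or batch. Deviations of same-numbered libraries from their zone means had a correlation of 0.64 over 15529 genes, with 2 pairs only, and blocked values stand beside those of the unblocked main fit where they change a call. Whether replicates came from separate cultures is not stated, so p-values speak for these libraries only. The fits also draw each gene's spread partly from the other genes, so SEs and p-values do not measure the spread of 1 gene alone. For CA9, the blocked edgeR interval of -4.95 to -3.59 does not reach the replicate 2 difference of -5.27.

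CPM use TMM-scaled library sizes, and log2 differences within replicates add 0.5 CPM. Lengths are union exons of GENCODE 44, which holds 98.13% of the identifiers. Promoter windows were found for 5 of the 9 members. Named are all members, the genes of the pH list called with or without the block or, for a class with none, the one with the highest mean CPM, and 4 genes nearest to CA9 and to CA12. The members and lists were chosen with earlier results of these data known.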

Additional observations from a re-analysis of the deposited data

How the results depend on the processing

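Every alternative kept the direction of the 6 tested members. RLE and upper-quartile scaling, a stricter count filter, limma voom and no fold minimum called no gene, as in the main test. Over all genes, higher and lower calls numbered 427 and 846 with no count filter, 354 and 548 with DESeq2, 530 and 1097 with the replicate block, 427 and 731 with DESeq2 and the block, 575 and 1088 with voom and the block, 454 and 909 at an unadjusted p, 444 and 840 with DESeq2 at an unadjusted p, and 3010 and 3009 with the block and no fold minimum. Leaving out 1 library gave 13 to 632 higher and 125 to 1137 lower, the lowest without core replicate 1. For the members, each of these 8 settings called 3 lower, and the block without fold minimum called 2 higher. Leaving out 1 library gave 1 to 3 lower: CA9 alone without core replicate 1, and CA9 and CA11 without invasion zone replicate 2. For the pH list the lower and higher calls were 3 and 1 with no filter, 2 and 1 with DESeq2, 3 and 1 with each of the 3 blocked fits, 2 and 1 at an unadjusted p, 3 and 1 with DESeq2 at an unadjusted p, 12 and 6 with the block and no fold minimum, and 0 to 3 and 0 to 1 with 1 library left out. With 1 library left out, the lone library of a zone is assumed to vary like those of the other zone. The block without fold minimum and DESeq2 at an unadjusted p were chosen after seeing the data, and the cause of these differences was not tested.

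The extracellular to cytosolic ratio had a core mean of 77.99, which became 41.27 without CA9 and 36.72 without CA12, and an invasion zone mean of 13.97, which became 1.599 without CA12 and 12.37 without CA9. Without CA13 it has no value. The depth of 11789243 counts in the shallowest library limits genes near the floor, such as SLC4A4.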
